A study of Mus musculus with 18 samples.

Results

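Low grade dysplasia (LGD) of the mouse colorectum was compared with normal colorectal mucosa, gene by gene and array by array. The samples were chosen by their titles, 3 arrays of low grade dysplasia at 4 weeks and 3 arrays of normal mucosa, which are 6 of the 18 arrays measured in this series. Each array held total RNA from 1 biological replicate, and 12877 genes could be tested. All mice were male ICR, an outbred stock, and were 6 weeks old at the start. The LGD mice received azoxymethane (AOM), a carcinogen that alkylates DNA, by intraperitoneal injection of 10 mg/kg on day 1. They then drank 2% dextran sulphate sodium (DSS), a polymer that damages the lining of the colon, on days 8 to 14, and were sampled on day 28, before a further DSS cycle. The mice behind the normal mucosa received saline in place of AOM and distilled water in place of DSS, and were sampled on day 14. LGD was also set beside inflamed mucosa of day 14, after the same AOM dose and the same DSS cycle, and beside high grade dysplasia (HGD) of day 42, after a second cycle of 1.5% DSS on days 29 to 33, with 3 arrays each. Stage, carcinogen, DSS and day of sampling all set LGD apart from normal mucosa and cannot be told apart, since no group received AOM or DSS alone and no normal mucosa of day 28 was analysed here. No source used here gives the lesion's share of the tissue or says whether animals were pooled.

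In this model the carcinogen leaves mutations in crypt cells, commonly ones that stabilise beta-catenin, and the colitis that follows drives the growth of the mutated crypts. Beta-catenin then keeps Wnt target genes on, which are otherwise limited to the crypt base. The normal colon surface is covered by colonocytes that absorb water and salts and live largely on the oxidation of butyrate and other fatty acids, with goblet cells that make mucus between them. Low grade dysplasia is the earliest lesion graded by a pathologist, in which crypt cells keep their immature form towards the surface.

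Of 12877 genes, 733 passed the test between LGD and normal mucosa (limma, Benjamini-Hochberg adjusted p at or below 0.05), 336 of them higher and 397 lower in LGD. That is 5.69% of all genes, 2.61% higher and 3.08% lower, and it is the background against which each gene group below is to be read. A change of at least 2-fold was found for 202 of them, 78 higher and 124 lower. The median log2 difference over all genes was 0.02, so the scale of the arrays was level between the groups. All 3 LGD arrays lay beyond all 3 normal arrays for 3898 genes (30.3%), 2101 of them higher (16.3%) and 1797 lower (14%). This held for 334 of the 336 genes called higher and 391 of the 397 called lower. That the groups do not overlap in a gene that passed is thus no separate evidence. With 3 arrays against 3, an exact permutation test on a single gene cannot give a p below 0.1, so each call rests on the spread that limma shares over genes and groups.

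**Figure D1:**
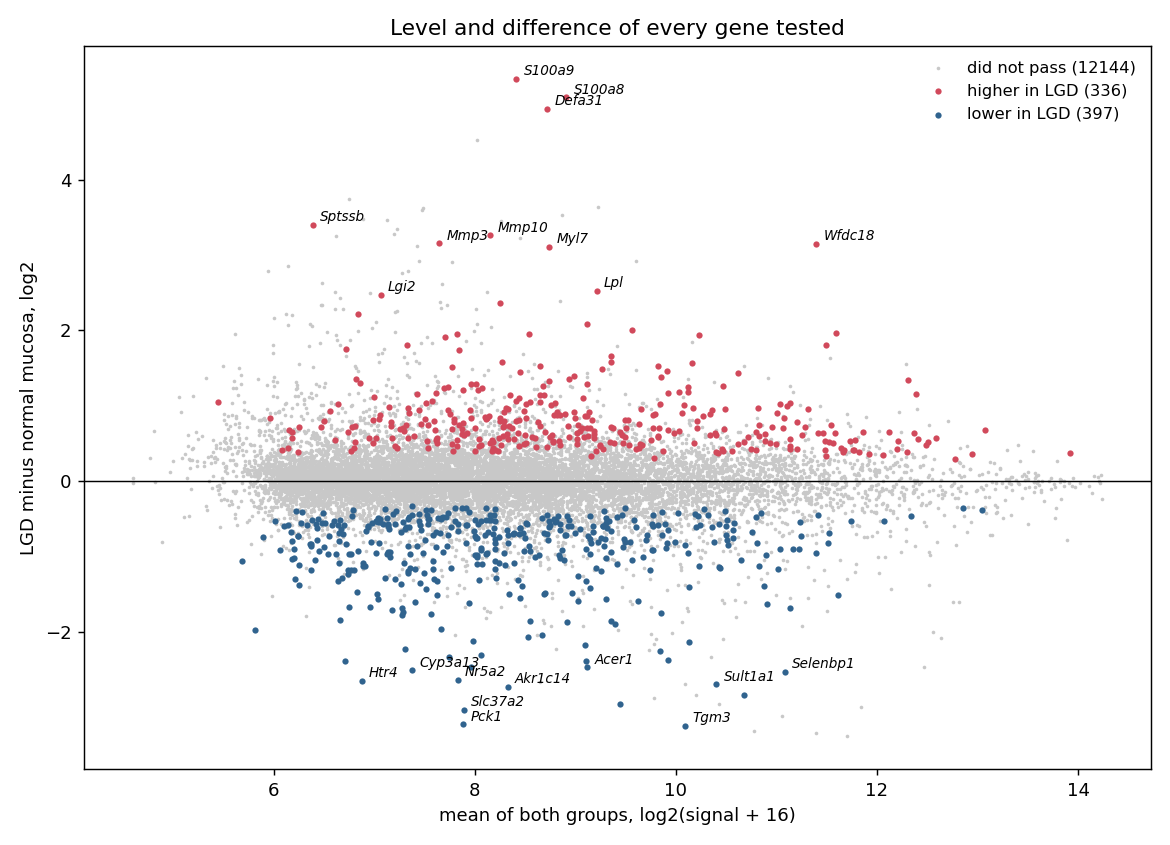
Each point is 1 of the 12877 genes tested, with the mean of both groups on the x axis, log2(signal + 16), and LGD minus normal mucosa on the y axis, log2. The 336 genes higher in LGD are red and the 397 lower are blue, and the labelled genes include S100a9 at the top and Tgm3 at the bottom.

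The 3 LGD arrays were unequal. LGD replicate 1 had 513 genes at least 2-fold above the highest normal array and 501 at least 2-fold below the lowest, replicate 2 had 240 and 244, and replicate 3 had 56 and 36. Each normal array against the other 2, a looser measure, had 13 to 56 above and 7 to 29 below. Over all genes, the correlation with the normal arrays was 0.876 to 0.888 for LGD replicate 1, 0.932 to 0.937 for replicate 2 and 0.966 to 0.977 for replicate 3, while the normal arrays correlated with each other at 0.980 to 0.986. Among the 733 genes that passed, replicate 3 was the LGD array nearest to the normal mean for 525 and replicate 1 the farthest for 422. The median SD of a gene was 0.19 over the LGD arrays, against 0.131 over the normal arrays, on the log2 scale. LGD replicate 2 also stood apart in RNA quality: the control probe sets at the 3′ end of Gapdh read 3.10 times those at its 5′ end, against 0.949 to 1.06 on the normal arrays, and those of beta actin 2.84 times, against 1.38 to 1.58. How far that moved the genes below was not tested.

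The number of genes called depended on which array was left out, normal arrays included. Without LGD replicate 3 the test called 1787 genes, without replicates 1 or 2 it called 113 or 146, and without normal replicates 1, 2 or 3 it called 249, 70 or 174. The 1787 were 827 higher and 960 lower of 12877 genes. Counts of list members called with an array left out, given below, are to be read against the total of the same fit. Of the 733 genes, 702 were called again without LGD replicate 3, 106 and 137 without LGD replicates 1 and 2, and 240, 70 and 163 without normal replicates 1, 2 and 3. Fitting only the 6 arrays gave 50 genes, 42 of them among the 733. For 58 genes (0.45% of those tested), 19 higher (0.148%) and 39 lower (0.303%), the test passed with all arrays and with each of the 6 arrays left out in turn. Below, every fit means these 7 fits and not the fit of only the 6 arrays. In that 6-array fit Sptssb (limma adjusted p = 0.0602) and Pck1 (0.0636), for example, missed the threshold, while Cyp51 (0.0421) and Ppara (0.0387) passed. A gene below that is not said to have passed in every fit lost its call without at least 1 array.

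**Figure D2:**
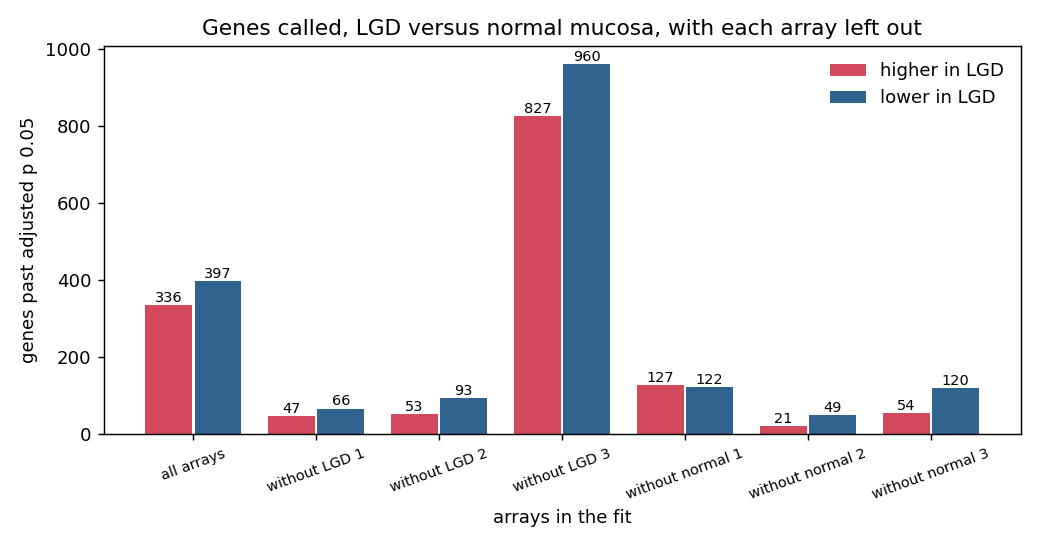
Bars give the number of genes past an adjusted p of 0.05 in LGD versus normal mucosa on the y axis, higher (red) and lower (blue), with all arrays and with each array left out on the x axis. The count is largest without LGD replicate 3 (827 higher, 960 lower) and smallest without normal replicate 2 (21 higher, 49 lower).

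The samples were first checked against markers of the tissue and of other tissues. Of 15 general epithelial genes 0 passed, and 13 had a negative log2 difference. Cdx1, an intestinal homeobox factor and the member with the smallest p, had signals of 289.5, 501 and 1055 in LGD, against 1003, 851 and 1015 in normal mucosa (-0.81 ± 0.50, adjusted p = 0.332), low on LGD replicates 1 and 2. Epcam, an adhesion molecule of epithelia, named like Krt8 after its values were seen, had 8444, 8934 and 10400 in LGD, against 9698, 9868 and 8624 in normal mucosa, in the order of replicates 1, 2 and 3, and the keratin gene Krt8 had 14120, 19480 and 18770 in LGD, against 17950, 18600 and 17740 in normal mucosa. By limma 0 of the 15 also passed with any array left out, and 0 had an unadjusted p under 0.05. The list's median log2 difference was -0.10, and its mean over members was -0.61, -0.08 and 0.26 on the LGD arrays against -0.07 to 0.08 on the normal arrays. Their summed signal was 51690, 72410 and 81640 in LGD, against 73190, 72630 and 68250 in normal mucosa, so LGD replicate 1 was the lowest of the 6 arrays. Smooth muscle markers, with the myosin light chain gene Myl9 at -0.59 ± 0.33, adjusted p = 0.285, had 0 of 14 called (unadjusted 0, median -0.52, summed signal 43680, 45800 and 42470 in LGD, against 47270, 68780 and 53500 in normal mucosa), and squamous markers 0 of 8 (unadjusted 2), although the basal keratin Krt14 read 524, 1271 and 114 in LGD, against 83.7, 91.2 and 55.6 in normal mucosa on a probe set that can bind related transcripts. Of 10 neuron and glia markers 1 was lower (10%, against 3.08% of all genes lower), the neuronal RNA-binding protein gene Elavl4 (-0.59 ± 0.13, adjusted p = 0.0239). Of 5 markers of pancreatic acini 1 was lower (20%), the elastase gene Cela1 (-1.50 ± 0.38, adjusted p = 0.0388). The other 4 had a positive log2 difference, up to 3.62 (list median 0.10), and 0 were called higher. T cell markers (0 of 10), B and plasma cell markers (0 of 11), adipocyte markers (0 of 5) and erythroid markers (0 of 2) had no gene that passed by limma, and 0, 0, 0 and 0 of them had an unadjusted p under 0.05. Their members with the smallest p differed by 1.03 ± 0.49, adjusted p = 0.206 for the granzyme gene Gzmb, -0.45 ± 0.52, adjusted p = 0.638 for the plasma cell receptor gene Tnfrsf17, -0.63 ± 0.36, adjusted p = 0.296 for the lipid droplet gene Plin4 and 0.41 ± 0.37, adjusted p = 0.528 for the haem synthesis gene Alas2. In bulk tissue, fewer cells of a type and less RNA per cell cannot be told apart.

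**Figure D3:**
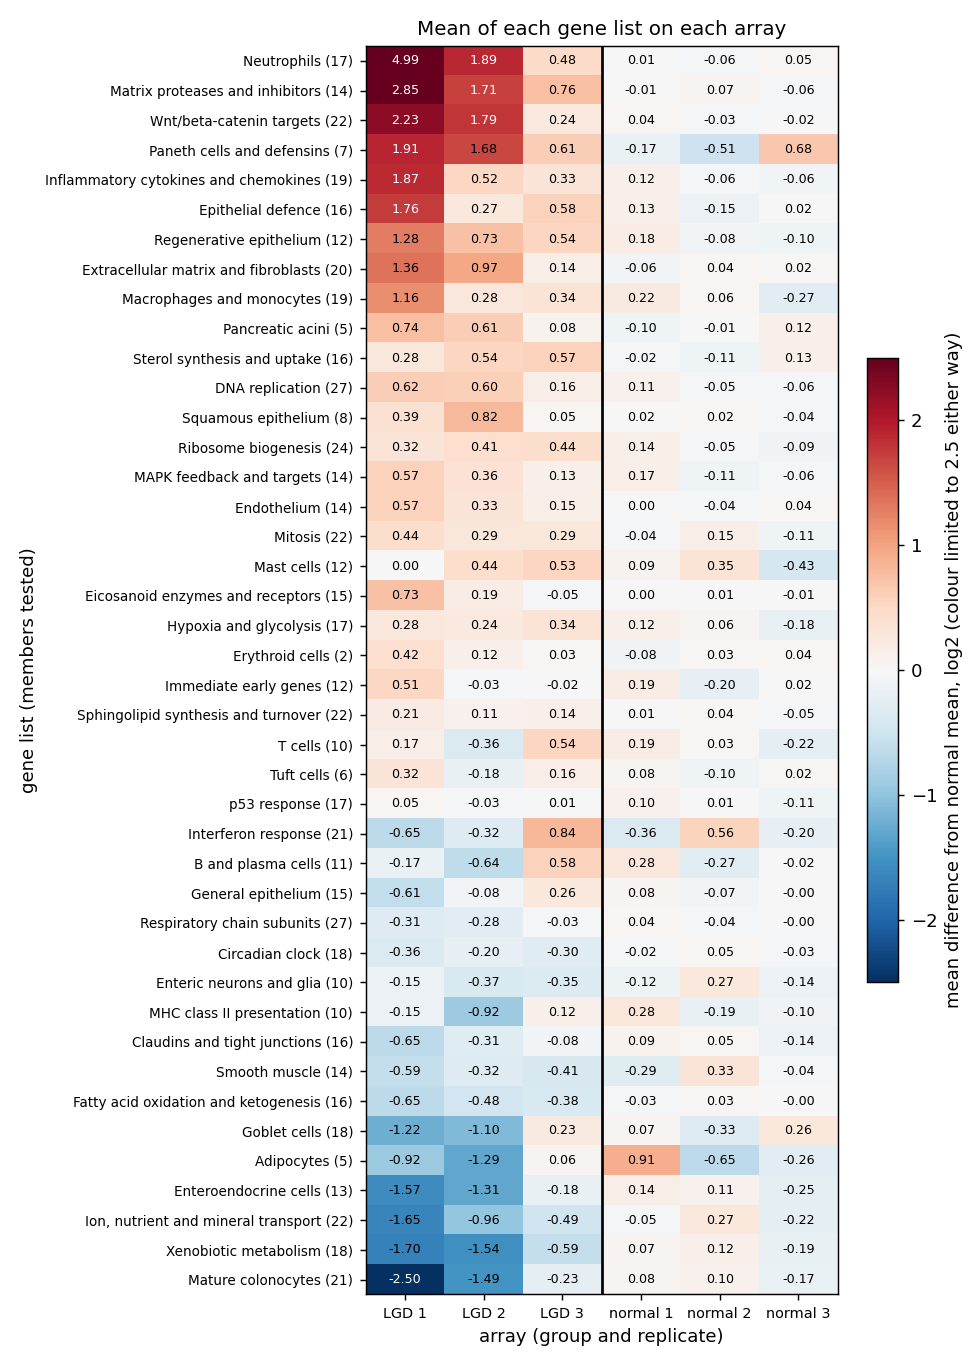
Rows are 42 gene lists with the number of members tested, columns are the 3 LGD arrays and the 3 normal arrays, and each cell gives the mean difference of the list's members from their normal mean (log2). For neutrophil, Wnt, colonocyte, goblet and enteroendocrine lists the third LGD array lies near the normal arrays, while for sterol synthesis, ribosome biogenesis and the circadian clock it lies with the other LGD arrays.

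Over 42 gene lists, the mean of a list's members on every LGD array lay above all normal arrays for 16 lists, below them for 7 and overlapped them for 19. In some lists, such as neutrophils and Wnt targets, LGD replicate 1 was farthest from and replicate 3 nearest to normal mucosa, and in others, such as ribosome biogenesis, the 3 LGD arrays lay together. Others did neither: the interferon response list had means of -0.65, -0.32 and 0.84 and the MHC class II list -0.15, -0.92 and 0.12 on LGD replicates 1, 2 and 3.

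The 10 largest increases were taken among genes that passed with all LGD arrays above all normal arrays, predicted genes passed over. They were led by S100a9 and S100a8, the 2 subunits of calprotectin, an antimicrobial protein most abundant in neutrophils. S100a9 had signals of 21280, 1799 and 247 in LGD, against 47.0, 15.3 and 62.5 in normal mucosa, and the mean log2 difference was 5.34 ± 1.40, 40.4-fold, adjusted p = 0.0407. S100a8 had 20690, 3330 and 303 in LGD, against 75.6, 41.7 and 89.9 in normal mucosa (5.09 ± 1.30, adjusted p = 0.0384). Both genes spanned over an order of magnitude within LGD, replicate 3 being nearest to normal mucosa. Both calls were kept without LGD replicate 3 (adjusted p = 0.00649 for S100a9) and lost without any other array (up to 0.164, without LGD replicate 1).

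Defa31, an alpha-defensin gene of the antimicrobial peptides that Paneth cells of the small intestine secrete, read 4952, 3954 and 626 in LGD, against 57.2, 60.1 and 63.4 in normal mucosa (4.94 ± 1.27, 30.6-fold, adjusted p = 0.0394). The normal arrays were close together and even the lowest LGD array stood about an order of magnitude above them. Wfdc18, which encodes a small secreted protein with a whey acidic protein domain, read 11160, 12260 and 3726 in LGD, against 1172, 588 and 1014 in normal mucosa (3.15 ± 0.54, 8.86-fold, adjusted p = 0.00918), and its call was lost only without normal replicate 2 (adjusted p = 0.051). It was the 1 gene of 16 in epithelial defence that passed (6.25%, against 5.69% of all genes, median 0.45). The probe sets of S100a8, Defa31 and Wfdc18 are marked by the manufacturer as able to bind related transcripts.

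Sptssb, a small subunit of serine palmitoyltransferase, the enzyme that starts sphingolipid synthesis, had signals of 403, 434 and 91.2 in LGD, against 8.09, 11.2 and 10.0 in normal mucosa. The difference was 3.40 ± 0.45, 10.6-fold, adjusted p = 0.00298, and the gene belongs to the 58 that passed in every fit. All LGD arrays were clearly above the normal arrays, which were near the lower end of the scale, and replicate 3 was again the lowest. Its other probe set gave a smaller log2 difference of 1.32. Myl7, the atrial myosin light chain, had 1119, 2005 and 850.3 in LGD, against 118, 108 and 172 in normal mucosa (3.11 ± 0.42, 8.61-fold, adjusted p = 0.00331), also passed in every fit, and here LGD replicate 2 was the highest. Lpl, lipoprotein lipase, read 4178, 887 and 746 in LGD, against 529, 138 and 166 in normal mucosa (2.52 ± 0.67, adjusted p = 0.0421), and normal replicate 1 was well above the other normal arrays. Lgi2, a secreted leucine-rich repeat protein, read 974, 365 and 67.1 in LGD, against 36.6, 45.3 and 40.7 in normal mucosa (2.47 ± 0.65, adjusted p = 0.0404).

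The 10 largest decreases, taken in the same way among genes that passed, were led by Tgm3, Pck1 and Slc37a2. Tgm3, a transglutaminase that cross-links proteins, had signals of 114, 231 and 1383 in LGD, against 4489, 2563 and 3235 in normal mucosa (-3.24 ± 0.81, 9.45-fold, adjusted p = 0.0351). Pck1, the rate-limiting enzyme of gluconeogenesis, had 24.4, 46.5 and 168 in LGD, against 665, 621 and 848 in normal mucosa (-3.22 ± 0.53, 9.32-fold, adjusted p = 0.00755). Slc37a2, which moves sugar phosphates across the endoplasmic reticulum membrane, had 53.6, 56.4 and 97.8 in LGD, against 1152, 878 and 284 in normal mucosa (-3.03 ± 0.47, 8.17-fold, adjusted p = 0.00607). The LGD arrays of Slc37a2 lay close together while normal replicate 3 was the lowest normal array, and for Tgm3 and Pck1 LGD replicate 3 was the highest LGD array. Pck1 and Slc37a2 passed in every fit, whereas the call of Tgm3 was kept without LGD replicate 3 (adjusted p = 0.00348) and lost without any other array (up to 0.148).

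Acer1, a ceramidase, had signals of 83.4, 246 and 493 in LGD, against 1126, 1567 and 1217 in normal mucosa (-2.47 ± 0.47, adjusted p = 0.0139). Htr4, a serotonin receptor, had 15.9, 13.8 and 92.6 in LGD, against 305, 281 and 249.7 in normal mucosa (-2.65 ± 0.49, adjusted p = 0.0116), and Nr5a2, a nuclear receptor of crypt cells also known as LRH-1, had 27.5, 49.4 and 251 in LGD, against 559.8, 553 and 538 in normal mucosa (-2.63 ± 0.59, adjusted p = 0.0226, and -1.11 and -2.68 on its other probe sets that passed the filter). On these 3 genes LGD replicates 1 and 2 were low and replicate 3 lay between them and the normal arrays. Selenbp1, a selenium-binding oxidase of the colonic epithelium, read 374, 689 and 2677 in LGD, against 5094, 5027 and 5448 in normal mucosa (-2.52 ± 0.62, adjusted p = 0.0322). Akr1c14, an aldo-keto reductase of steroids, read 32.1, 106 and 315 in LGD, against 523, 1084 and 932 in normal mucosa (-2.73 ± 0.70, adjusted p = 0.0386). Sult1a1 and Cyp3a13 complete the 10 and are given with the detoxifying enzymes.

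**Figure D4:**
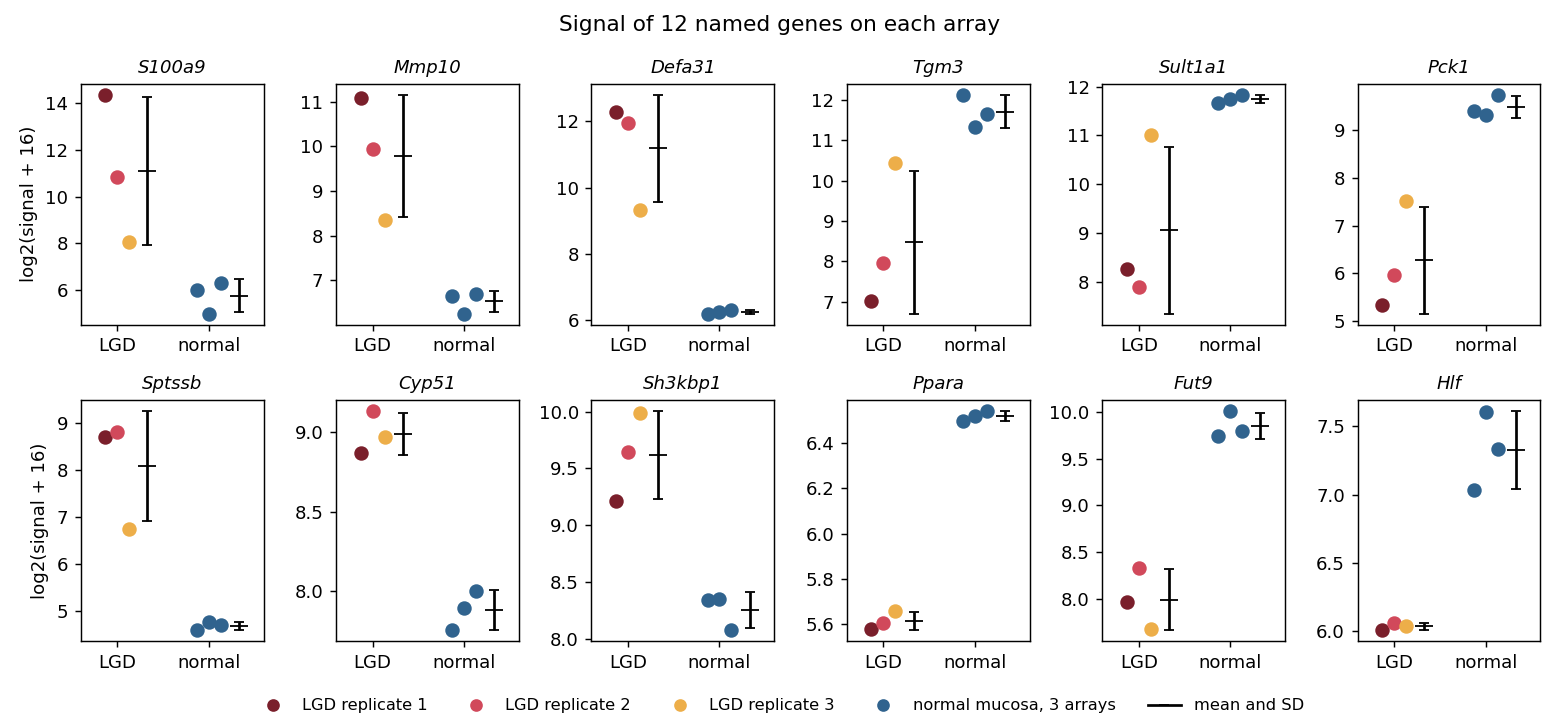
Each panel shows 1 gene, with log2(signal + 16) on the y axis for the 3 LGD arrays and the 3 normal arrays, and a bar for the group mean and SD. In the upper row the third LGD array lies nearest to normal mucosa, as for S100a9 with 21280, 1799 and 247 in LGD, and in the lower row the LGD arrays of Cyp51, Ppara and Hlf lie close together.

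Among the 58 genes that passed in every fit, Sptssb and Myl7 had the largest increases, followed by Serpina3n, Igfbp5, Ifi202b and Col18a1. Serpina3n, a protease inhibitor of the acute phase, had signals of 1830, 954 and 816 in LGD, against 242, 297 and 226 in normal mucosa (2.09 ± 0.37, 4.24-fold, adjusted p = 0.0103). Igfbp5, a binding protein of insulin-like growth factors, had 10030, 6843 and 3310 in LGD, against 1575, 1754 and 1346 in normal mucosa (1.97 ± 0.29, 3.91-fold, adjusted p = 0.00468), although its other probe set differed by only 0.21. Col18a1, the collagen of basement membranes from which endostatin is cut, had 1753, 1452 and 586 in LGD, against 377, 346 and 333 in normal mucosa (1.66 ± 0.28, 3.16-fold, adjusted p = 0.00918). All 3 genes were highest in LGD replicate 1 and lowest in replicate 3, and the groups did not overlap. Sh3kbp1, an adaptor in the uptake of growth factor receptors, differed in that replicate 3 was the highest, with 577, 786 and 998 in LGD, against 308, 311 and 253 in normal mucosa (1.36 ± 0.22, 2.57-fold, adjusted p = 0.00713, and 0.48 on its other probe sets that passed the filter). The interferon-inducible gene Ifi202b had 419, 586 and 322 in LGD, against 107, 123 and 72.2 in normal mucosa (1.96 ± 0.29, adjusted p = 0.00468, on a probe set that can bind relatives). The zinc importer gene Slc39a10 differed by 1.21 ± 0.20, adjusted p = 0.00752 and the lysosomal protease gene Lgmn by 1.03 ± 0.15, adjusted p = 0.00428.

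The decreases that passed in every fit, beside Pck1 and Slc37a2, included carbohydrate-modifying and detoxifying enzymes. Fut9, a fucosyltransferase that builds Lewis antigens, had signals of 233, 305 and 188 in LGD, against 842, 1015 and 873 in normal mucosa (-1.86 ± 0.28, 3.64-fold, adjusted p = 0.00486). Replicate 3 was the lowest LGD array for Fut9, so this gene did not follow the grading of the arrays. Gal3st2c, a sulphotransferase of galactose on glycoproteins, had 17.7, 26.3 and 51.3 in LGD, against 249, 151 and 289.6 in normal mucosa (-2.38 ± 0.30, 5.21-fold, adjusted p = 0.00178). Cyp2c68, a cytochrome P450, had 48.4, 78.4 and 181 in LGD, against 579.8, 563 and 558 in normal mucosa (-2.46 ± 0.40, adjusted p = 0.00752), and Ces1d, a carboxylesterase, had 69.0, 51.9 and 93.4 in LGD, against 256, 262 and 288 in normal mucosa (-1.73 ± 0.27, adjusted p = 0.00607). For the last 3 genes LGD replicate 3 was the highest LGD array and still below every normal array. The beta-defensin gene Defb45 differed by -1.85 ± 0.31, adjusted p = 0.0078, the synapsin gene Syn2 by -1.67 ± 0.22, adjusted p = 0.0024, and the immunoglobulin-domain gene Vsig10 by -1.49 ± 0.26, adjusted p = 0.0101.

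Wnt target genes stood well above normal mucosa on 2 of the 3 LGD arrays, and 1 of them passed. Of 22 targets tested, all had a positive log2 difference (median 1.46, against 0.02 over all genes). All LGD arrays lay above all normal arrays for 12, against 16.3% of all genes, and 1 passed the test (4.55%, against 2.61% of all genes higher). This was Cd44, a hyaluronan receptor of crypt and immune cells, with signals of 2427, 1724 and 951 in LGD, against 663, 467 and 589 in normal mucosa (1.46 ± 0.28, 2.75-fold, adjusted p = 0.0139). Cd44 did not differ between LGD and inflamed mucosa (-0.32 ± 0.28, limma adjusted p = 0.39). In that comparison 11 of the 22 targets were higher in LGD and 0 lower, against 19.3% of all genes higher. Axin2, the feedback inhibitor used as a standard readout of Wnt signalling, had 1001, 1011 and 259 in LGD, against 215, 216 and 194 in normal mucosa (1.56 ± 0.70, adjusted p = 0.188). The crypt stem cell receptor Lgr5 had 767, 342 and 76.8 in LGD, against 87.2, 76.0 and 83.8 in normal mucosa (1.59 ± 0.90, adjusted p = 0.293), and Myc had 236, 265 and 209.7 in LGD, against 201, 155 and 166 in normal mucosa (0.41 ± 0.19, adjusted p = 0.199). Axin2 and Lgr5 were several-fold above the normal arrays on LGD replicates 1 and 2 and near them on replicate 3. None of the 3 passed, and the groups overlapped for Lgr5.

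The same split held for the list as a whole, whose mean over members was 2.23, 1.79 and 0.24 on LGD replicates 1, 2 and 3, against -0.03 to 0.04 on the normal arrays. Members picked after their values were seen show its range. Wif1, a secreted Wnt inhibitor, had 1301, 1567 and 96.7 in LGD, against 37.2, 29.8 and 39.1 in normal mucosa, and Prox1, a homeobox factor, had 837, 361 and 64.6 in LGD, against 45.3, 31.9 and 33.0 in normal mucosa. Neither passed, and both stood above the normal arrays on all 3 LGD arrays, replicate 3 the least, while Sox9 had 438, 426 and 212 in LGD, against 243, 231 and 301 in normal mucosa and was lower on LGD replicate 3 than on any normal array. The number of Wnt targets called was 0, 0 and 6 without LGD replicates 1, 2 or 3 and 1, 0 and 1 without normal replicates 1, 2 or 3. The 6 of 22 called without LGD replicate 3, all higher, compare with 827 of 12877 genes called higher in that fit.

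**Figure D5:**
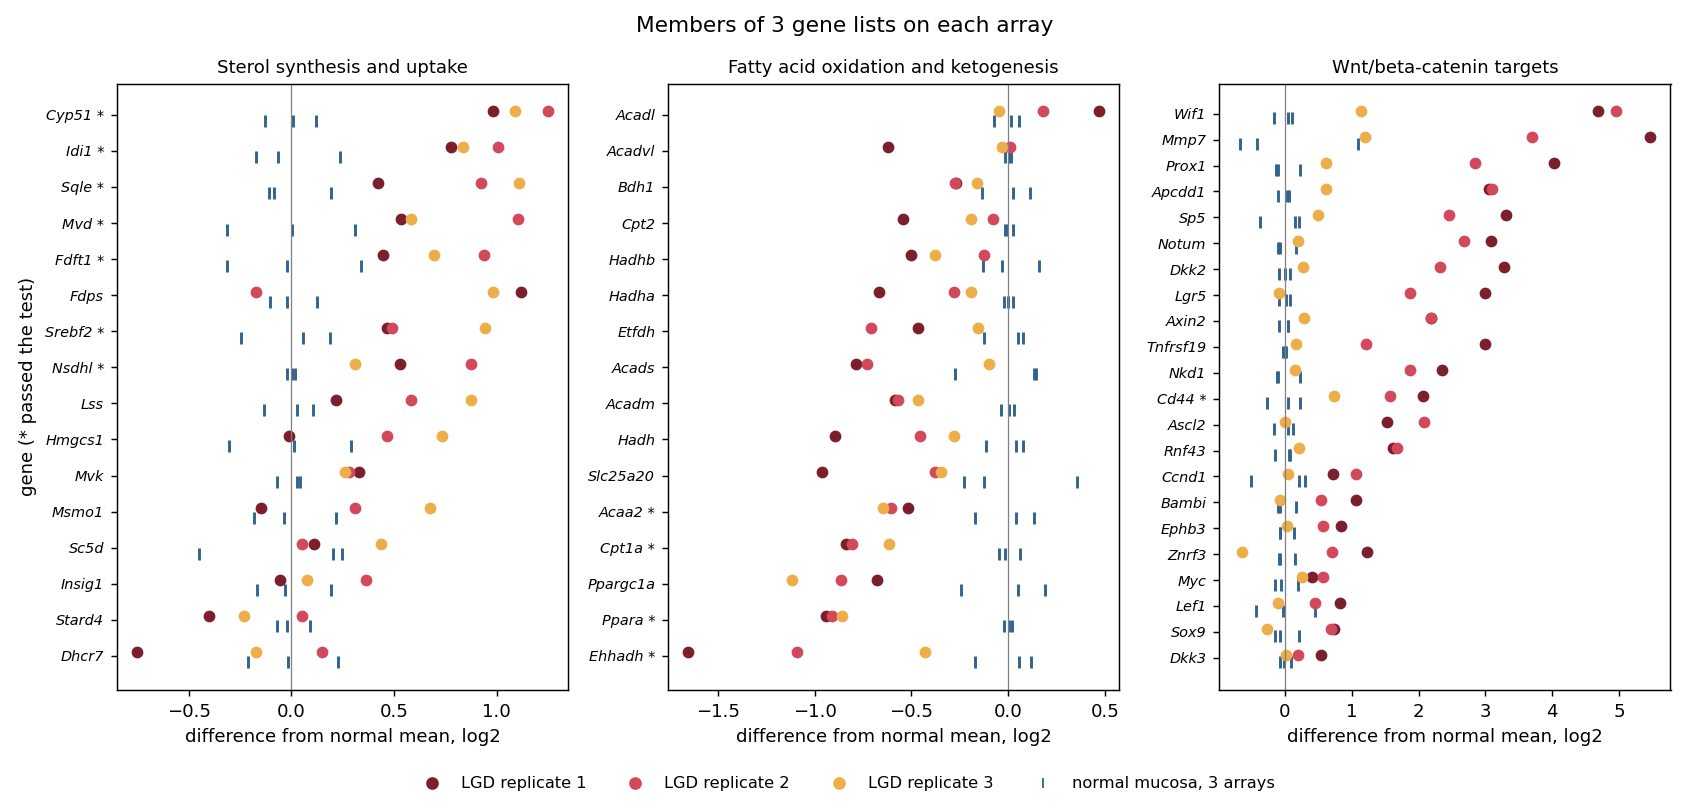
Each row is a member of the sterol, fatty acid oxidation or Wnt target list, and the x axis gives the difference from the normal mean (log2) on the LGD arrays (circles) and the normal arrays (bars); an asterisk marks a gene that passed. The LGD arrays lie together for Cyp51 and Ppara, whereas for Wif1, Axin2 and Lgr5 the third LGD array is far from the other two.

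Among genes of DNA replication, those of the MCM helicase were modestly higher in LGD. Of 27 tested, 4 were higher and 0 lower (14.8%, against 2.61% of all genes higher, median 0.46), and all 4 were subunits of this helicase, which unwinds DNA at replication origins. Mcm3 had signals of 455, 494 and 313 in LGD, against 257, 189 and 195 in normal mucosa (0.91 ± 0.24, adjusted p = 0.0394), and Mcm4 had 701, 654 and 502 in LGD, against 402, 353 and 337 in normal mucosa (0.73 ± 0.20, adjusted p = 0.0485). Mcm2 and Mcm7 differed by 0.71 ± 0.19, adjusted p = 0.0448 and 0.65 ± 0.17, adjusted p = 0.0419. The groups did not overlap in these genes, and LGD replicate 3 was the lowest LGD array in each. The probe sets of Mcm2, Mcm3 and Mcm7 can bind related transcripts.

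Of 22 mitosis genes 2 were higher (9.09%, against 2.61% of all genes higher, median 0.32). The mitotic kinase gene Plk1 had 259, 288 and 283 in LGD, against 172, 189 and 158 in normal mucosa (0.63 ± 0.16, adjusted p = 0.0333), with no grading among the LGD arrays, and the topoisomerase gene Top2a had 965, 942 and 696 in LGD, against 532, 639 and 506 in normal mucosa (0.61 ± 0.17, adjusted p = 0.0488). Mki67, the gene of the proliferation marker Ki-67, had 1259, 1279 and 1351 in LGD, against 1087, 1292 and 1071 in normal mucosa, which overlapped, and did not pass (0.18 ± 0.19, adjusted p = 0.62). Without any array but LGD replicate 3, 0 of the replication genes and 0 of the mitosis genes passed, and without that array 16 and 4 did.

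Most ribosome biogenesis genes stood above normal mucosa on all 3 LGD arrays alike. Of 24 tested, 6 were higher and 0 lower (25%, against 2.61% of all genes higher), and 18 had all LGD arrays above all normal arrays, against 16.3% of all genes. Rrp12, which helps to export ribosomal subunits from the nucleus, had signals of 91.2, 143 and 116 in LGD, against 64.3, 54.4 and 40.6 in normal mucosa (0.94 ± 0.17, 1.91-fold, adjusted p = 0.0104) and passed in every fit. Nolc1, a nucleolar phosphoprotein, had 378, 439 and 471 in LGD, against 273, 201 and 169 in normal mucosa (0.97 ± 0.22, adjusted p = 0.0248), and the nucleolar GTPase gene Gnl3 had 760.1, 763 and 679 in LGD, against 462, 369.9 and 361 in normal mucosa (0.87 ± 0.19, adjusted p = 0.0218). For Nolc1 replicate 3 was the highest LGD array, and for Gnl3 the LGD arrays lay within a narrow range. Nop56, a core protein of the particles that methylate ribosomal RNA, had 1179, 1006 and 1125 in LGD, against 718, 505 and 487 in normal mucosa (0.95 ± 0.25, adjusted p = 0.0423, on a probe set that can bind relatives). The other members that passed, named after their values were seen, were Bop1 (0.55 ± 0.14) and Pes1 (0.46 ± 0.13), partners in the maturation of the large subunit. The list's mean was 0.32, 0.41 and 0.44 on the LGD arrays, against -0.09 to 0.14 on the normal arrays, and the number higher was 2, 1 and 6 without LGD replicates 1, 2 or 3 and 3, 1 and 1 without normal replicates 1, 2 or 3. Without LGD replicate 3, 1 member was also lower. With all arrays, 3 of the 24 had a negative log2 difference, down to -0.60.

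Neutrophil genes differed from array to array more than any other list. Their mean was 4.99, 1.89 and 0.48 on LGD replicates 1, 2 and 3, against -0.06 to 0.05 on the normal arrays, and their summed signal was 78420, 8208 and 1574 in LGD, against 930, 916 and 907 in normal mucosa. The part of these cells in the other differences was not tested. Of 17 members 2 were higher (11.8%, against 2.61% of all genes higher), S100a8 and S100a9. All LGD arrays lay above all normal arrays for 13, against 16.3% of all genes (median 2.24). Ngp, a granule protein of immature neutrophils, had 7974, 253 and 44.2 in LGD, against 32.5, 45.7 and 49.3 in normal mucosa, so it was highest on replicate 1, above the normal arrays on replicate 2 and among them on replicate 3. The other members named after their values were seen include Lcn2, a siderophore-binding protein that epithelium also makes, with 8212, 855 and 156 in LGD, against 92.1, 131 and 78.5 in normal mucosa (3.23 ± 1.07, adjusted p = 0.0831). The number called was 0, 0 and 14 without LGD replicates 1, 2 or 3 and 0, 0 and 0 without normal replicates 1, 2 or 3.

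Among the signals that draw neutrophils, Cxcl5 had 1756, 727 and 30.1 in LGD, against 15.7, 13.1 and 11.7 in normal mucosa (3.74 ± 1.05, adjusted p = 0.0512) and Cxcl2 had 5470, 242 and 28.0 in LGD, against 19.6, 16.5 and 22.9 in normal mucosa (3.48 ± 1.33, adjusted p = 0.125). Both fell from LGD replicate 1 to 3, as the neutrophil list did, but Cxcl2 is itself a member of that list. Of 19 cytokines and chemokines 0 passed by limma (unadjusted 4), while 2 passed without LGD replicate 3 and 0 without any other array. Ptgs2, the inducible cyclooxygenase, had 912, 129 and 90.5 in LGD, against 120.3, 101 and 149 in normal mucosa and did not pass (0.82 ± 1.02, adjusted p = 0.667); it was high on replicate 1 alone. Hpgd, which degrades prostaglandins, was the 1 of 15 eicosanoid genes that passed (6.67%, against 5.69% of all genes). It was lower, with 238, 649 and 893 in LGD, against 1779, 3568 and 1973 in normal mucosa (-2.13 ± 0.44, 4.37-fold, adjusted p = 0.018). Of 19 macrophage and monocyte genes 1 was higher (5.26%, against 2.61% of all genes higher). This was the growth factor receptor gene Csf1r, with 5288, 3418 and 3156 in LGD, against 2389, 2233 and 2254 in normal mucosa (0.75 ± 0.18, adjusted p = 0.0341). The summed signal of that list was 35650, 16070 and 21170 in LGD, against 19430, 15750 and 14380 in normal mucosa. Of 21 interferon response genes 0 passed with all arrays or with any left out (unadjusted 0), and Oas1a, an antiviral enzyme, had 704, 1085 and 3348 in LGD, against 1635, 3382 and 1885 in normal mucosa, an order that set LGD replicate 3 beside normal replicate 2. Of 12 mast cell genes 1 was lower (8.33%, against 3.08% of all genes lower). This was the stem cell factor receptor gene Kit (-0.88 ± 0.21, adjusted p = 0.0298), which interstitial cells of the gut wall express too. The mast cell list as a whole was not lower: 8 of its 12 members had a positive log2 difference (median 0.18), and 0 were called higher.

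Stromelysins and basement membrane collagens were higher in LGD. Of 14 proteases and inhibitors, 4 were higher and 0 lower (28.6%, against 2.61% of all genes higher, median 1.92). Mmp10 and Mmp3, stromelysins that cut many matrix proteins, had signals of 2143, 967 and 309 in LGD, against 84.0, 60.1 and 86.6 in normal mucosa (3.26 ± 0.76, 9.59-fold, adjusted p = 0.0269), and of 922, 611 and 348 in LGD, against 60.5, 42.3 and 51.5 in normal mucosa (3.16 ± 0.84, 8.92-fold, adjusted p = 0.0419). Both were graded from LGD replicate 1 to 3, and even replicate 3 was more than 3 times the highest normal array. Timp1, an inhibitor of these proteases, had 1313, 660.2 and 354 in LGD, against 139, 143 and 82.6 in normal mucosa (2.36 ± 0.49, 5.15-fold, adjusted p = 0.0177), and the membrane-bound Mmp14 had 1305, 937 and 504 in LGD, against 328, 349.6 and 337 in normal mucosa (1.30 ± 0.28, 2.45-fold, adjusted p = 0.0202). The number called was 0, 0 and 9 without LGD replicates 1, 2 or 3 and 1, 0 and 0 without normal replicates 1, 2 or 3.

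Stromelysin genes are known targets of AP-1, the Fos and Jun transcription factor, which binds the letters TGANTCA. The promoters of Mmp3 and Mmp10 are shown because both genes were among the 10 largest increases that passed and both hold this motif once. It lies 46 bases before the start in Mmp3 and 63 in Mmp10. The windows run from 250 bases before to 50 after the gene's start (RefSeq, GRCm38.p6), 5′ to 3′ on the gene's strand, with the motif in capitals.
Mmp3 chr9:7445572-7445871 (plus strand): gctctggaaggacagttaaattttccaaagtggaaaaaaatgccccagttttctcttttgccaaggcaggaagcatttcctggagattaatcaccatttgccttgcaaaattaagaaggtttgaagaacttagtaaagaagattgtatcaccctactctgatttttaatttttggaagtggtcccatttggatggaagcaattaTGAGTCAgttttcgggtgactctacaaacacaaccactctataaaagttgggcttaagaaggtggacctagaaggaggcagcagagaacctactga
Mmp10 chr9:7502092-7502391 (plus strand): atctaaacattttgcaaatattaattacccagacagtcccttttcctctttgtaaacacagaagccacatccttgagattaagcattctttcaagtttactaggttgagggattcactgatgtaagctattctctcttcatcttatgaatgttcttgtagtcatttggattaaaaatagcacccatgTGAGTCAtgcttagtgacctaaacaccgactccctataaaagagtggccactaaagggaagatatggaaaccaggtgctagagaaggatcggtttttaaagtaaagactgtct
Searched on both strands, the motif was in a window of 6 of the 11 protease genes with a promoter entry, against 8.97% of 27025 genes and 7.81% of 32851 promoters. Of the 4 genes that were higher, 2 had it, Mmp3 and Mmp10. A match of letters describes the sequence and not binding.

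Of 20 genes of extracellular matrix and fibroblasts, 5 were higher and 0 lower (25%, against 2.61% of all genes higher, median 0.87). Beside Col18a1 these were the basement membrane collagens Col4a1, with 4152, 3794 and 2105 in LGD, against 1405, 1861 and 1451 in normal mucosa (1.04 ± 0.24, 2.05-fold, adjusted p = 0.0255), and Col4a2, with 2074, 2300 and 969.8 in LGD, against 658, 798 and 718 in normal mucosa (1.19 ± 0.28, 2.28-fold, adjusted p = 0.0274). Pdgfrb, a growth factor receptor of pericytes and fibroblasts, had 1469, 1470 and 999.5 in LGD, against 600.1, 639 and 639.9 in normal mucosa (1.03 ± 0.24, 2.04-fold, adjusted p = 0.0266), and Col5a2, named after its values were seen, differed by 1.03 ± 0.27, adjusted p = 0.0431. In all 4 genes LGD replicates 1 and 2 stood well above replicate 3, which still lay above the normal arrays. The summed signal of the list was 83620, 69650 and 41350 in LGD, against 37130, 42110 and 41160 in normal mucosa, so replicate 3 was within the normal range in the sum. The number called was 1, 1 and 11 without LGD replicates 1, 2 or 3 and 1, 1 and 1 without normal replicates 1, 2 or 3. Of 14 endothelial genes 1 was higher (7.14%), the co-receptor gene Eng (0.52 ± 0.14, adjusted p = 0.0471). The summed signal of the endothelial genes was 3605, 3272 and 2610 in LGD, against 2240, 2214 and 2446 in normal mucosa. Of 12 regenerative epithelium genes 1 was higher (8.33%), the annexin gene Anxa1 (0.65 ± 0.17, adjusted p = 0.0396). Both shares compare with 2.61% of all genes higher. Whether stromal cells took a larger share of the LGD samples was not tested.

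Genes of sterol synthesis and uptake were the list with the highest share of calls, and those called lay above normal mucosa on all 3 LGD arrays. Of 16 tested, 7 were higher and 0 lower (43.8%, against 2.61% of all genes higher, median 0.57). Cyp51, the demethylase of lanosterol, had signals of 450.2, 544 and 485 in LGD, against 200, 222 and 240.1 in normal mucosa (1.11 ± 0.16, 2.15-fold, adjusted p = 0.00428, and 0.83 and 0.33 on its other probe sets that passed the filter) and passed in every fit. Idi1, which isomerises the isoprene unit, had 1091, 1280 and 1137 in LGD, against 557, 602 and 745 in normal mucosa (0.87 ± 0.18, 1.83-fold, adjusted p = 0.017), and Sqle, the epoxidase of squalene, had 711, 1012 and 1152 in LGD, against 487, 496 and 604 in normal mucosa (0.82 ± 0.18, 1.76-fold, adjusted p = 0.0206). Mvd, a decarboxylase of the mevalonate pathway, had 192, 292 and 199 in LGD, against 128, 99.4 and 162 in normal mucosa (0.74 ± 0.18, 1.67-fold, adjusted p = 0.0333). The groups did not overlap in these 4 genes, and LGD replicate 3 was the highest for Sqle and never the nearest to normal mucosa.

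The other 3 that passed, named after their values were seen, were Fdft1, the squalene synthase (0.69 ± 0.18, adjusted p = 0.0404), Srebf2, the transcription factor that drives the pathway (0.63 ± 0.15, adjusted p = 0.0288), and Nsdhl, a sterol dehydrogenase (0.57 ± 0.14, adjusted p = 0.0358). The list's mean was 0.28, 0.54 and 0.57 on LGD replicates 1, 2 and 3, against -0.11 to 0.13 on the normal arrays, so that here replicate 1 was the nearest. Among the members that did not pass, Dhcr7, of the last step, had 589, 1112 and 889 in LGD, against 992, 863 and 1177 in normal mucosa (-0.26 ± 0.20, adjusted p = 0.447). The number called was 3, 2 and 7 without LGD replicates 1, 2 or 3 and 2, 1 and 5 without normal replicates 1, 2 or 3. Set against inflamed mucosa, 14 of the 16 were higher in LGD and 0 lower (19.3% of all genes were higher in that comparison).

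Promoters of sterol synthesis genes are known to pair sites of SREBP, the factor that Srebf2 encodes, with sites of NF-Y, which binds CCAAT. The windows of Cyp51, Idi1 and Mvd are shown because these genes were higher and each holds CCAAT or its reverse complement ATTGG, in capitals, within 60 bases before the start (250 bases before to 50 after the start, RefSeq, GRCm38.p6, 5′ to 3′ on the gene's strand).
Cyp51 chr5:4104648-4104947 (minus strand): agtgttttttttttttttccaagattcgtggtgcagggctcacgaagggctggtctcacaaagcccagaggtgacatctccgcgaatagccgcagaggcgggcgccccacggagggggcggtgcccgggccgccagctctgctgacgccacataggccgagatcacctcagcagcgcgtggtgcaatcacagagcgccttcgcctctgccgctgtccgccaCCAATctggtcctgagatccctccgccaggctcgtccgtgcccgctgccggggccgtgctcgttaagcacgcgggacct
Idi1 chr13:8885356-8885655 (plus strand): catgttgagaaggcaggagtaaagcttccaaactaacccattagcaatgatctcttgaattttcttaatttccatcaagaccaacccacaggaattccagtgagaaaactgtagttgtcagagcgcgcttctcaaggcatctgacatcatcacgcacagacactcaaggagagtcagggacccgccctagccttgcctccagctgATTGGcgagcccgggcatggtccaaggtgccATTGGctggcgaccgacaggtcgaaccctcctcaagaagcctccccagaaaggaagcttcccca
Mvd chr8:122443373-122443672 (minus strand): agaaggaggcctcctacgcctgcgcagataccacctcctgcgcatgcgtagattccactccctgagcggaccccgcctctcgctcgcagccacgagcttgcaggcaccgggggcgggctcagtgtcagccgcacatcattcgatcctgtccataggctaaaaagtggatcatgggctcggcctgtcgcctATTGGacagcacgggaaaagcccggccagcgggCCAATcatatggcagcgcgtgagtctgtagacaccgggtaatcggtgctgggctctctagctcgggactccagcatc
CCAAT was found on either strand in all 12 sterol genes with a promoter entry, 5 of them higher in LGD, against 41.1% of 27025 genes and 37.4% of 32851 promoters. The SREBP motif searched, TCACNCCAC, was found in 1 of the 12, Hmgcs1, against 1.44% of all genes. Hmgcs1 did not pass between LGD and normal mucosa (0.40 ± 0.18, adjusted p = 0.195). These letters are a description of the windows and say nothing of which factor was bound.

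Sphingolipid genes moved in both directions. Of 22 tested, 3 were higher and 2 lower (22.7%, against 5.69% of all genes called in either direction, median -0.03). Beside Sptssb, the kinase gene Sphk1, whose product makes sphingosine 1-phosphate, had 233, 127 and 147 in LGD, against 62.5, 60.4 and 42.2 in normal mucosa (1.36 ± 0.30, 2.56-fold, adjusted p = 0.0207), and Cers2, the synthase of very long chain ceramides, had 556, 528 and 486 in LGD, against 352, 314 and 345 in normal mucosa (0.61 ± 0.09, 1.53-fold, adjusted p = 0.00579) and passed in every fit. The ceramide synthase gene Cers4 was lower, with 142, 185 and 345 in LGD, against 363, 509.7 and 399.6 in normal mucosa (-0.95 ± 0.23, 1.94-fold, adjusted p = 0.0311), and so was Sphk2, named after its values were seen (-0.40 ± 0.11, adjusted p = 0.0438). For Cers4 LGD replicate 3 was near the normal arrays, whereas for Cers2 the LGD arrays lay together. The number higher was 2, 3 and 3 without LGD replicates 1, 2 or 3 and 3, 2 and 2 without normal replicates 1, 2 or 3. The 2 lower calls were kept without LGD replicate 3 and both lost without any other array.

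Genes of fatty acid oxidation stood below normal mucosa on all 3 LGD arrays. Of 16 tested, 4 were lower and 0 higher (25%, against 3.08% of all genes lower, median -0.54), and 12 had all LGD arrays below all normal arrays, against 14% of all genes. Ppara, the nuclear receptor that switches on fatty acid oxidation, had signals of 31.8, 32.7 and 34.5 in LGD, against 74.2, 75.8 and 77.0 in normal mucosa. Both groups were tight and far apart (-0.90 ± 0.09, 1.87-fold, adjusted p = 4.08e-04), the gene passed in every fit, and its adjusted p was 3.25e-04 to 0.00501 with single arrays left out. These signals are low, below the table's median of 56.6 in LGD and above it in normal mucosa, and 2 further probe sets that fell under the filter had log2 differences of -0.93 and -0.51.

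Cpt1a, which brings fatty acids into mitochondria, had 1088, 1114 and 1273 in LGD, against 1897, 1938 and 2045 in normal mucosa (-0.75 ± 0.14, 1.69-fold, adjusted p = 0.0103), and its LGD arrays lay together. Its adjusted p was at most 0.0508 with an array left out. Ehhadh, a peroxisomal enzyme and Ppara target, had 72.1, 114 and 189.8 in LGD, against 229.8, 272 and 284 in normal mucosa (-1.06 ± 0.24, 2.08-fold, adjusted p = 0.0249) and was graded. Acaa2, the last enzyme of the oxidation cycle, had 514, 483 and 469.8 in LGD, against 659.7, 816 and 765 in normal mucosa (-0.59 ± 0.14, adjusted p = 0.0255, on a probe set that can bind relatives). The number lower was 2, 2 and 8 without LGD replicates 1, 2 or 3 and 3, 1 and 2 without normal replicates 1, 2 or 3. Ndufa1 of complex I (-0.38 ± 0.08, adjusted p = 0.0188) and Cox6c of complex IV (-0.35 ± 0.09, adjusted p = 0.0338) were lower, 2 of 27 respiratory chain subunits. This was 7.41%, against 3.08% of all genes lower, with a list median of -0.22. Without LGD replicate 3, 13 were lower, and without any other array 0 were.

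Of 18 circadian clock genes, 2 were lower and 0 higher (11.1%, against 3.08% of all genes lower). Per3, a repressor of the clock, had signals of 52.1, 82.9 and 52.8 in LGD, against 196, 219 and 194 in normal mucosa (-1.50 ± 0.29, 2.83-fold, adjusted p = 0.0139, and -0.49 and -0.62 on its other probe sets that passed the filter), and Hlf, a clock-controlled transcription factor, had 48.4, 50.9 and 49.6 in LGD, against 115, 178 and 146 in normal mucosa (-1.29 ± 0.29, 2.44-fold, adjusted p = 0.0228). The LGD arrays agreed closely for Hlf, and neither gene overlapped between the groups. The list's mean was -0.36, -0.20 and -0.30 on the LGD arrays, against -0.03 to 0.05 on the normal arrays, and its median was -0.20. The number lower was 0, 1 and 3 without LGD replicates 1, 2 or 3 and 2, 0 and 1 without normal replicates 1, 2 or 3. The hour at which the mice were sampled is not given in the sources used here.

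Detoxifying enzymes had the highest share of decreases. Of 18 xenobiotic metabolism genes, 7 were lower and 0 higher (38.9%, against 3.08% of all genes lower), with a median of -1.23. Sult1a1, a sulphotransferase of phenols, had signals of 291, 223 and 2049 in LGD, against 3220, 3420 and 3637 in normal mucosa (-2.69 ± 0.62, 6.45-fold, adjusted p = 0.0262). Cyp3a13, a cytochrome P450, had 16.7, 41.7 and 164 in LGD, against 468, 402 and 291 in normal mucosa (-2.51 ± 0.57, 5.68-fold, adjusted p = 0.0249). For both genes LGD replicate 3 was the highest LGD array and still lay below the normal arrays. The glutathione transferase genes Gstm1, with 1128, 721 and 2328 in LGD, against 4246, 4294 and 3501 in normal mucosa (-1.68 ± 0.30, 3.20-fold, adjusted p = 0.0103), and Gstm3 (-1.59 ± 0.33, adjusted p = 0.017) were measured on probe sets that can bind relatives. The remaining members that passed, named after their values were seen, were Aldh1a1 (-1.59 ± 0.27, adjusted p = 0.00918), which makes retinoic acid, the glucuronosyltransferase Ugt2b35 (-1.29 ± 0.28) and the P450 Cyp2d26 (-1.02 ± 0.27). The number lower was 3, 2 and 11 without LGD replicates 1, 2 or 3 and 3, 0 and 2 without normal replicates 1, 2 or 3.

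Genes of the mature colonocyte stood far below normal mucosa on LGD replicates 1 and 2. Of 21 tested, 3 were lower and 0 higher (14.3%, against 3.08% of all genes lower, median -1.17). Beside Pck1 and Slc37a2, the phosphate transporter gene Slc20a1 passed, with 455, 625 and 1069 in LGD, against 2360, 1238 and 2021 in normal mucosa (-1.40 ± 0.33, 2.65-fold, adjusted p = 0.0282). Car4, the membrane carbonic anhydrase of surface colonocytes, had 76.8, 355 and 5026 in LGD, against 4691, 7619 and 4636 in normal mucosa (-3.30 ± 1.41, adjusted p = 0.169), so that replicate 3 was at the normal level, and it did not pass. The chloride exchanger Slc26a3, named after its values were seen, had 206, 1341 and 7293 in LGD, against 9611, 12150 and 9518 in normal mucosa (-3.00 ± 1.37, adjusted p = 0.196). The list's mean was -2.50, -1.49 and -0.23 on LGD replicates 1, 2 and 3, against -0.17 to 0.10 on the normal arrays. Without LGD replicate 3, 7 members were lower, and without any other array 2 were.

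Of 22 ion, nutrient and mineral transport genes, 2 were lower (9.09%, against 3.08% of all genes lower). All LGD arrays lay below all normal arrays for 13, against 14% of all genes. Trpm6, the magnesium channel, had signals of 161, 318 and 273 in LGD, against 1078, 1967 and 695 in normal mucosa (-2.16 ± 0.44, 4.48-fold, adjusted p = 0.0168, and -1.22 on its other probe set), with replicate 1 the lowest. Slc4a4, a sodium bicarbonate cotransporter, had 106, 149 and 276 in LGD, against 619, 1026 and 632 in normal mucosa (-2.07 ± 0.34, 4.19-fold, adjusted p = 0.00752) and passed in every fit. Both genes were low on all 3 LGD arrays. The number lower was 1, 2 and 11 without LGD replicates 1, 2 or 3 and 2, 1 and 2 without normal replicates 1, 2 or 3. Of 16 claudin and tight junction genes 0 passed (unadjusted 4, median -0.33, 1 lower without LGD replicate 3 and 0 without any other array), and Cgn, a tight junction scaffold, had 494, 485 and 820 in LGD, against 1091, 794 and 926 in normal mucosa (-0.66 ± 0.25, adjusted p = 0.117).

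Goblet and enteroendocrine genes stood below normal mucosa on 2 LGD arrays and near it on the third. Of 18 goblet cell genes 1 was lower (5.56%, against 3.08% of all genes lower). This was Atoh1, the factor that commits cells to the secretory fate, with 199, 278 and 645 in LGD, against 813, 843 and 907 in normal mucosa (-1.33 ± 0.35, 2.50-fold, adjusted p = 0.0432). Muc2, the main gel-forming mucin, had 5246, 6847 and 11780 in LGD, against 10490, 8346 and 11670 in normal mucosa and did not pass (-0.42 ± 0.90, adjusted p = 0.811). The chloride channel regulator gene Clca1, named after its values were seen, had 426, 2357 and 13340 in LGD, against 12270, 11430 and 16700 in normal mucosa and differed several-fold between any pair of LGD arrays. The goblet list's mean was -1.22, -1.10 and 0.23 on the LGD arrays, against -0.33 to 0.26 on the normal arrays. Without LGD replicate 3, 5 members were lower, and without any other array 0 were.

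Of 13 enteroendocrine genes 0 passed with all arrays (limma; 8 at an unadjusted p under 0.05), while 7 were lower without LGD replicate 3 and 0 without any other array. The member with the smallest p was Scg3, a granin of secretory granules, with 71.4, 79.0 and 94.9 in LGD, against 107, 109 and 109.7 in normal mucosa (-0.36 ± 0.12, adjusted p = 0.0824). The hormone gene Insl5, named after its values were seen, had 98.8, 323 and 3116 in LGD, against 4111, 3846 and 3510 in normal mucosa (-2.95 ± 1.28, adjusted p = 0.173), and 12 of the 13 members had a negative difference (median -0.72). Their summed signal was 1737, 2498 and 9477 in LGD, against 12490, 12450 and 9150 in normal mucosa, so replicate 3 lay within the normal range. Of 7 Paneth cell and defensin genes 1 was higher, Defa31 (14.3%, against 2.61% of all genes higher). Of 6 tuft cell genes 0 passed (unadjusted 1), with Rgs13, a regulator of G proteins, at 22.0, 11.9 and 105 in LGD, against 111, 99.2 and 144 in normal mucosa.

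The genes whose LGD arrays differed most, among those steady over the normal arrays, were of 2 kinds. Chil3, a chitinase-like protein of macrophages and neutrophils, had 5192, 98.6 and 30.6 in LGD, against 17.7, 12.8 and 17.0 in normal mucosa. Hp, the haemoglobin-binding haptoglobin, had 5327, 272 and 54.8 in LGD, against 42.4, 26.4 and 25.4 in normal mucosa, and Wfdc21, an antiproteinase-like protein, had 2541, 86.6 and 22.6 in LGD, against 25.3, 30.2 and 29.4 in normal mucosa. The chemokine gene Cxcl3 had 1735, 86.9 and 7.70 in LGD, against 9.13, 7.18 and 6.00 in normal mucosa. With Ngp and Cxcl2 above, these were high on LGD replicate 1, intermediate on replicate 2 and near the normal arrays on replicate 3. None of the 6 passed.

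The other kind were epithelial products. Gsdmc2, a gasdermin of the colonic epithelium, had 35.1, 325 and 4572 in LGD, against 2586, 2087 and 3878 in normal mucosa, lowest on replicate 1 and above the normal arrays on replicate 3. Retnlb, a goblet cell protein induced by microbes and worms, had 13960, 76.8 and 21370 in LGD, against 13690, 9894 and 12820 in normal mucosa, so replicate 2 alone was about 2 orders of magnitude lower than all other arrays. Neither passed (adjusted p = 0.202 and 0.547).

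Single members of the remaining lists were higher by less than 2-fold. Hif1a, the hypoxia-inducible factor, had 3119, 2845 and 3326 in LGD, against 1880, 1592 and 1901 in normal mucosa (0.79 ± 0.21, adjusted p = 0.0422) and was 1 of 17 hypoxia and glycolysis genes that passed. Aen, an exonuclease induced by p53, had 274, 274 and 284 in LGD, against 209, 155 and 168 in normal mucosa (0.61 ± 0.16, adjusted p = 0.0398) and was 1 of 17 p53 response genes that passed. The LGD arrays lay together for both. Spred1, a brake on growth factor signalling, had 524, 561 and 448 in LGD, against 403, 335 and 319 in normal mucosa (0.52 ± 0.14, adjusted p = 0.0493), 1 of 14 such genes. The shares called in these 3 lists were 5.88%, 5.88% and 7.14%, near the 5.69% of all genes. Of the 17 p53 response genes, 10 had a negative log2 difference (median -0.12). Of 12 immediate early genes 0 passed (unadjusted 1), with Ier3 at 1915, 644 and 319 in LGD, against 261, 239 and 274 in normal mucosa (1.46 ± 0.51, adjusted p = 0.0969), and of 10 genes of antigen presentation on MHC class II 0 passed (unadjusted 0), with H2-Eb1 at 3272, 205 and 429 in LGD, against 4162, 1975 and 2977 in normal mucosa (-2.09 ± 1.06, adjusted p = 0.242).

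Against inflamed mucosa of day 14, after the same AOM and DSS, LGD had 4677 genes that passed, 2483 higher (19.3%) and 2194 lower (17%). General epithelial genes were higher in LGD for 15 of 15 (median 3.06), goblet cell genes for 16 of 18, mitosis genes for 22 of 22 and sterol genes for 14 of 16. Macrophage genes were lower for 16 of 19, endothelial genes for 12 of 14, neuron and glia markers for 10 of 10, and proteases for 11 of 14. The general epithelial markers moved in the same direction as the goblet cell, mitosis and sterol genes here, and their part in those results was not tested.

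Of the 20 genes with the largest differences between LGD and normal mucosa, 9 also differed between LGD and inflamed mucosa, against 36.3% of all genes. Sptssb averaged 309 ± 189 in LGD and 14.0 ± 5.09 in inflamed mucosa (signal, SD, n = 3 each), a log2 difference of 3.20 ± 0.45 (limma adjusted p = 1.16e-04). Myl7 averaged 1325 ± 604 in LGD and 111 ± 77.9 in inflamed mucosa (3.55 ± 0.42, limma adjusted p = 3.34e-05). Both were high in LGD alone among these 3 groups, as was Defa31 (4.53 ± 1.27, limma adjusted p = 0.0123). Mmp3 averaged 627 ± 287 in LGD and 8415 ± 5030 in inflamed mucosa (-3.55 ± 0.84), and Mmp10 differed by -2.83 ± 0.76, so both stood between normal and inflamed mucosa. Acer1 was higher in LGD than in inflamed mucosa (2.96 ± 0.47). S100a9 averaged 7777 ± 11700 in LGD and 19150 ± 5680 in inflamed mucosa and did not pass (-3.10 ± 1.40, limma adjusted p = 0.0972). Ppara differed by -0.01 ± 0.09 and Slc37a2 by 0.05 ± 0.47, and neither passed.

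Against HGD of day 42, 0 of 12877 genes passed (limma), while 900 had an unadjusted p under 0.05. The count was 55 without LGD replicate 3, 40 higher and 15 lower in LGD, 1 without HGD replicate 3 and 0 without any of the other 4 arrays. The median SD of a gene was 0.19 in LGD and 0.133 in HGD. The list medians (LGD minus HGD) were -0.59 for Wnt targets, -1.34 for mast cell genes and 0.98 for extracellular matrix, against -0.01 over all genes. Sptssb averaged 309 ± 189 in LGD and 394 ± 126 in HGD, and Axin2 averaged 757 ± 431 in LGD and 939.6 ± 137 in HGD (signal, SD, n = 3 each). Myl7 averaged 1325 ± 604 in LGD and 1283 ± 323 in HGD, and Defa31 3177 ± 2270 in LGD and 4976 ± 699 in HGD. High signals of Sptssb, Myl7 and Defa31 were thus not particular to LGD. A p that misses the threshold does not show that the lesions are alike.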

How the data were processed

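Total RNA of each sample was hybridised as biotin-labelled cRNA to an Affymetrix mouse array, 1 array per sample, per the labels. The deposited values are intensity, a linear signal per probe set. MAS5 is named in the submitters' processing notes, with no version or settings in the sources used here. Array medians lay between 55.7 and 57.8, so no scaling was added, and no depth applies: the number of arrays limits the precision.

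Signals were tested as log2(signal + 16), which understates changes of dim genes. Of 45101 probe sets, 34945 name 1 gene, 932 several and 9160 none, by GEO's platform annotation. Those naming 1 gene were kept where at least 3 of 18 arrays exceeded the table's median of 56.6, and each of 12877 genes was read from its probe set with the highest mean. limma 3.58.1 (R 4.3.3) fitted 6 group means over 18 arrays (12 residual degrees of freedom, intensity trend, Benjamini-Hochberg over all genes, 2-sided). Differences are LGD minus the other group, with the model's SE. P-values and SE rest on the spread between biological replicates, pooled over all 6 groups and shared over genes. They thus also reflect groups outside a comparison. For Mmp3 the SE was 0.84, against 0.33 with only the 6 LGD and normal arrays fitted. The code was tested on simulated data.

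The samples, the 42 gene lists and the naming rule were chosen with earlier results of these data known. Named were the 10 largest increases and 10 largest decreases among genes that passed with all arrays apart. The 10 and 10 largest among genes passing in all 7 fits were named too. So were up to 4 members per list that passed (the smallest p where none passed). The 8 genes most variable over LGD with an SD under 0.5 over normal mucosa were added. Axin2, Lgr5, Myc, Ptgs2, Car4, Muc2, Mki67 and Ppara were always named, and predicted genes were passed over. Epcam, Krt8, Dhcr7, Hmgcs1 and others so marked were picked after their values were seen. Equal replicate numbers did not pair the groups: deviations of same-numbered LGD and normal arrays correlated at -0.01, 0.13 and -0.13. No 2 of the 18 arrays were identical. Alternatives changed the offset, normalization, filter, arrays, trend, array weights (gene by gene method), probe sets and replicate block.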

Additional observations from a re-analysis of the deposited data

Results flagged for a closer look

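Of the 20 genes named as the largest increases and decreases that passed, 9 also differed between LGD and inflamed mucosa of day 14. These are the 2 early groups of treated mice, and the test was limma's test of that difference. Among all genes, 36.3% differed by that test, so the count alone does not set these 20 apart. As LGD minus inflamed mucosa on the log2 scale, Defa31 was at 4.53, Myl7 at 3.55, Sptssb at 3.20, Acer1 at 2.96 and Akr1c14 at 1.86. Mmp3 was at -3.55, Mmp10 at -2.83, Lgi2 at -2.45 and Lpl at -1.81. Myl7 and Sptssb thus were high in LGD while inflamed mucosa was near normal mucosa, and the stromelysins Mmp3 and Mmp10 and the lipase Lpl were higher still in inflamed mucosa.

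The control probe sets, which enter no comparison, set LGD replicate 2 apart. Its ratio of 3′ to 5′ signal was 1.63 for Gapdh and 1.51 for beta actin on the log2 scale, against -0.08 to 0.09 and 0.47 to 0.66 on the normal arrays. Whether this moved any gene described above was not tested, and without this array 146 genes passed between LGD and normal mucosa. Groups of 3 arrays are too small for a test of single outlying samples.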

How the results depend on the processing

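The count of 733 genes between LGD and normal mucosa kept within 1.5 times under an offset of 1 (736) or 64 (768), quantile normalization (863), no filter (556), a filter on all arrays (720), no intensity trend (752), every probe set on its own (1066) and a replicate block (549, of which 512 were among the 733; the shared replicate numbers do not pair the arrays). It moved to 50 with only the 6 arrays fitted, to 2275 with array weights, and from 70 to 1787 with single arrays left out (70 without normal replicate 2, 1787 without LGD replicate 3). Against inflamed mucosa the count of 4677 moved to 7160 with every probe set on its own, where more features were tested, and ran from 3562 to 4845 with single arrays left out. Against HGD the count of 0 was 0 to 55 with single arrays left out, 55 without LGD replicate 3 and 1 without HGD replicate 3. The share of higher calls against normal mucosa was 45.8%, and 34% with only 6 arrays. For the 110 named genes, 1226 of 1607 alternative results kept direction and side of the threshold, 353 lost the call, 28 gained it and 0 changed sign among called values; 23 of the 81 that passed did so whichever array was left out. Of 629 alternative list medians, 27 moved by more than the spread of the LGD arrays. The causes were not tested. Signals near the lower end of the scale, such as those of Sptssb in normal mucosa, bound the folds that could be measured.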

Other observations

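Among the 58 genes that passed in all 7 fits, several not yet described are of energy and amino acid metabolism, picked after their values were seen. Me2, a mitochondrial malic enzyme, had signals of 279, 245 and 335 in LGD, against 842, 844 and 778 in normal mucosa (-1.48 ± 0.18, adjusted p = 0.00178). Aldh6a1, which breaks down valine, had 139, 179 and 236 in LGD, against 399, 425 and 447 in normal mucosa (-1.16 ± 0.18, adjusted p = 0.0057), and Dbt, a subunit of the complex that oxidises branched-chain amino acids, had 129, 128 and 162 in LGD, against 233, 237 and 221 in normal mucosa (-0.67 ± 0.09, adjusted p = 0.00331). In all 3 genes the groups did not overlap, as in nearly all genes that passed.

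Scarb1, a receptor for high density lipoprotein, had 423, 459.5 and 306 in LGD, against 225, 197 and 214 in normal mucosa (0.84 ± 0.13, adjusted p = 0.0061, on a probe set that can bind related transcripts), and Rdh5, a retinol dehydrogenase, had 38.9, 47.1 and 50.9 in LGD, against 104, 96.6 and 87.1 in normal mucosa (-0.86 ± 0.10, adjusted p = 0.00163). Pdcd4, an inhibitor of translation initiation, had 1670, 1879 and 2254 in LGD, against 3408, 3597 and 4239 in normal mucosa (-0.95 ± 0.16, adjusted p = 0.00752). Itih2, which binds hyaluronan in the matrix, had 45.6, 45.3 and 50.6 in LGD, against 138, 175 and 116 in normal mucosa (-1.32 ± 0.14, adjusted p = 5.52e-04), and the growth factor gene Fgf1 had 84.6, 109.6 and 153 in LGD, against 302, 259 and 255 in normal mucosa (-1.16 ± 0.16, adjusted p = 0.00408). Among the 3381 probe sets with several genes or none, which were tested apart, 85 passed between LGD and normal mucosa.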
